A study of Homo sapiens with 12 samples.

Results

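The genes described here encode the machinery that copies DNA: 48 genes of DNA replication and the replication fork, chosen by symbol from the 60617 Ensembl gene identifiers of the deposited tables. All 48 symbols matched 1 identifier each, and all 48 passed the filter on low counts that left 21581 genes for testing. RNA was sequenced from A549 cells, a human lung adenocarcinoma line, 24 hours after siRNA transfection. One group received a non-targeting control siRNA (siCo), and the other 2 groups received either of 2 combinations of siRNAs that target YAP1 and WWTR1, which encodes TAZ, labelled siYAP/TAZ#1 and siYAP/TAZ#2. Each group had 4 libraries, described by the series as biological replicates, all from the same line with no other genotype or drug. The siRNA sequences and the transfection conditions are not given in the sources used here.

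YAP and TAZ are coactivators of the TEAD transcription factors and are restrained by the Hippo kinases. Replication starts where the origin recognition complex sits on DNA. CDC6 and CDT1 load the MCM2-7 ring there during G1, and CDC45, GINS and MCM10 turn that ring into the active helicase of S phase. Polymerase alpha with primase starts each new strand, polymerases delta and epsilon extend it on the PCNA clamp, which the RFC complex loads, and FEN1 and LIG1 join the lagging-strand fragments. Many of these genes are textbook targets of E2F factors, which switch them on as cells pass from G1 into S phase, so their transcripts are widely read as a sign of cycling cells.

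The start regions of the genes are shown first because promoters with E2F sites are the best-known shared feature of the group. RefSeq promoter windows (GRCh38.p14, 250 bases before to 50 after the start, 1 per symbol) were found for 41 of the 48 genes. The E2F words searched were TTTCCCGC, TTTCGCGC, TTTGCCGC and TTTGGCGC on both strands. The TEAD word was GGAATG, the word of the cell cycle homology region (CHR) was TTTGAA, and the last was CCAAT, where NF-Y binds. The following stretches run 5′ to 3′ on the gene's strand up to the base before the RefSeq start. Capitals mark the E2F words, and in GINS1 the TEAD word. They were chosen as genes whose levels are described in detail below or, for MCM6, for carrying the most E2F words.
GINS1 (chr20:25407553-25407672, plus strand): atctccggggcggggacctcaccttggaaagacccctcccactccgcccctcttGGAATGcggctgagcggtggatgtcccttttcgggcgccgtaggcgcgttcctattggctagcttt
GINS2 (chr16:85688955-85689074, minus strand): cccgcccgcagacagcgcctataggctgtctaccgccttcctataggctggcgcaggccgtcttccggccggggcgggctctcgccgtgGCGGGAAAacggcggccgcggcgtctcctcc
UHRF1 (chr19:4909381-4909500, plus strand): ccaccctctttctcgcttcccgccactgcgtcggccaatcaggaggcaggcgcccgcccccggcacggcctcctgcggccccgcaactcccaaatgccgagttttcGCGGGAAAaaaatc
PCNA (chr20:5126623-5126742, minus strand): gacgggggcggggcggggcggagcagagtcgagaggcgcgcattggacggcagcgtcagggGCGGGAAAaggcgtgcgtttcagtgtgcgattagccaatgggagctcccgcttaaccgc
MCM6 (chr2:135876444-135876615, minus strand): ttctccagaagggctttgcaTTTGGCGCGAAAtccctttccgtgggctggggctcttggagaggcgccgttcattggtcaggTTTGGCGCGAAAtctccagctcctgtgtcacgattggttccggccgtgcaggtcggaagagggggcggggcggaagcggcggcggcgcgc

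The UHRF1 and GINS2 windows start inside the GENCODE v29 span of their gene, since the RefSeq start lies downstream of the outermost GENCODE end. In MCM6 each capital stretch holds a word on either strand, which overlap. The GINS1 window also had 1 E2F word after the start, 6 bases in, which is not printed. An E2F word stood in 20 of the 41 windows, 48.8%, against 3.33% of all 27305 promoter windows and 4.96% of the 13221 windows of genes tested. CCAAT stood in 24 of 41 (58.5%) against 36.1% of the windows of genes tested. The TEAD word stood in 5 of 41 (12.2%), those of GINS1, ORC6, POLA2, PRIM1 and CHAF1A, against 11.1%, and the CHR word in 0 of 41 against 10.5%. A word match is a description of the sequence and shows no binding.

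**Figure D1:**
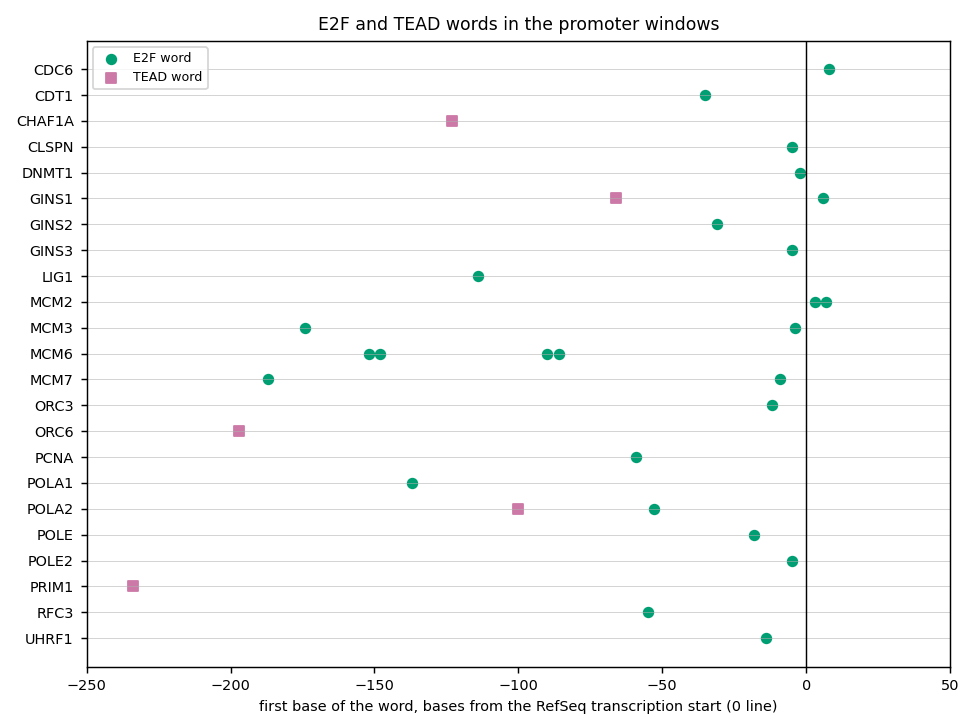
Positions of E2F words (circles) and TEAD words (squares) in the promoter windows of the replication genes that hold one, as bases from the RefSeq transcription start (vertical line), with 1 gene per row. Most E2F words lie within 60 bases of the start, while MCM3, MCM6, MCM7, LIG1 and POLA1 hold words farther upstream, and of these only MCM3 and MCM7 have 1 near the start too.

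Library totals, in units of 1e6 estimated counts, ran from 29.6 to 38.3. YAP1 ranged from 116 to 125 CPM in siCo and from 16.5 to 20.5 CPM over the 8 treated libraries, and WWTR1 from 230.0 to 254 and from 29.7 to 35.3 CPM, so every library matched its label as control or treated. Both genes overlapped between siYAP/TAZ#1 and siYAP/TAZ#2, so they do not show which combination a library received. The line's epithelial keratins were present (KRT8 at 832 TPM in siCo), while EPCAM stood at 1.01 TPM there. Of the alveolar type II markers SFTPA1 was listed at 0, and SFTPB, SFTPC and NKX2-1 stood at 0.167 TPM or lower in every group mean. The type II marker NAPSA rose from 0.511 TPM in siCo to 1.05 and 1.21 TPM, and LAMP3 from 0.140 to 0.215 and 0.226 TPM. Summed type II levels were 0.395 to 0.981 TPM in siCo, 1.17 to 2.09 TPM with siYAP/TAZ#1 and 1.34 to 2.18 TPM with siYAP/TAZ#2. Summed levels of the 4 fibroblast markers were 16.5 to 26.6 TPM in siCo, 31.8 to 44.9 TPM with siYAP/TAZ#1 and 23.8 to 38.1 TPM with siYAP/TAZ#2, nearly all COL1A1, with COL3A1, DCN and LUM at 0.402 TPM or lower in every group mean. The 4 leukocyte markers summed to 12.7 to 16.5, 15.6 to 27.6 and 16.9 to 29.8 TPM, mostly CD68, with CD3E near 0. These marker levels are TPM values with no further scaling. On log2(TPM + 1) the median of all genes tested rose as well, by 0.19 with siYAP/TAZ#1 and 0.24 with siYAP/TAZ#2. The part of the cells these markers stand for in the results was not tested. siYAP/TAZ#2 replicate 1 stood apart: its mean Pearson correlation with its own group, on log2 CPM, was 0.9811 against 0.9858 to 0.9902 for the others, and it was the lowest or highest of its group for 39 of the 48 genes. Counts that change without it are given with the results. Exons of 22 of the 48 genes overlap another gene in GENCODE v29, 17 on the other strand, including MCM2, GINS2, ORC2, RPA1 and CLSPN, and 7 on the same strand, including DNMT1. No source used here gives the strandedness, so reads from partners on the other strand could not be told apart where transcripts overlap. For partners on the same strand, strandedness would not separate the reads.

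Levels below are CPM, counts as a share of the library total, after TMM scaling, which adjusts that total for differences in library composition. Each change is a log2 value with its standard error after ±. Adjusted p is that of the quasi-likelihood test in edgeR, with Benjamini-Hochberg adjustment over all 21581 genes. A gene was called at an adjusted p under 0.05. Both comparisons with siCo share the siCo libraries.

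Between genes, levels can be set side by side only per length, so the TPM values were used for that. In siCo the highest were the helicase subunits MCM4 at 138 ± 25.1 TPM and MCM7 at 122 ± 21.5, the clamp PCNA at 114 ± 23.4 and the polymerase delta subunit POLD2 at 88.6 ± 15 (SD, n = 4). These 4 differed by no more than the added SDs of neighbours. The lowest were the polymerase epsilon subunit POLE2 at 5.45 ± 1.40 TPM, ORC3 at 6.08 ± 2.02 and the chromatin assembly subunit CHAF1B at 6.26 ± 0.911. Subunits of 1 complex were not at 1 level: within the MCM2-7 ring, MCM6 stood at 12.5 TPM. All 6 genes of the origin recognition complex were in the lower part of the order, ORC6 being the highest at 14.3 TPM.

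**Figure D2:**
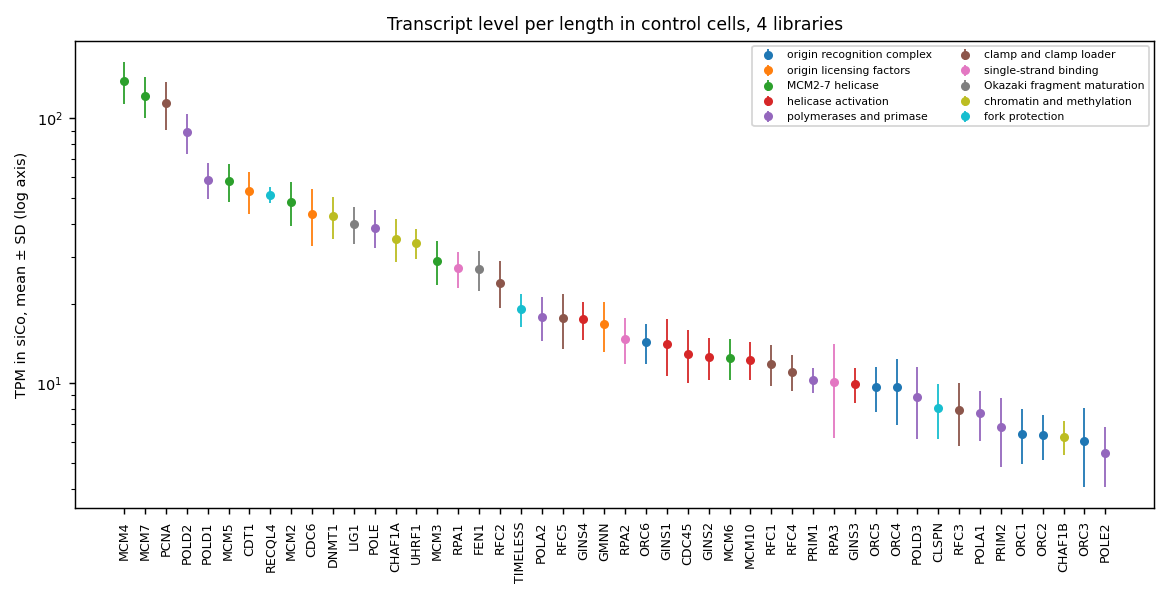
Mean TPM ± SD over the 4 siCo libraries for the 48 genes, in order of level on a log axis and coloured by role. MCM4, MCM7 and PCNA exceed 100 TPM and POLE2 is lowest at 5.45 TPM, with neighbours in the order mostly within their SDs.

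With either combination the replication genes fell together, mostly by small amounts. Of 48, 33 were lower and 1 higher with siYAP/TAZ#1, against 18.5% of all genes tested lower and 16.4% higher, and 14 were not called. With siYAP/TAZ#2, 39 were lower and 1 higher, against 19.2% and 19% of all genes, and 8 were not called. The same 33 were lower with both combinations, against 13.3% of all genes. The median log2 change was -0.27 with siYAP/TAZ#1 and -0.33 with siYAP/TAZ#2, while the median of all genes tested was 0.022 and 0.019. The 8 genes lower by at least 0.5 on the log2 scale with siYAP/TAZ#1 and the 7 with siYAP/TAZ#2 had 4 in common. Without siYAP/TAZ#2 replicate 1, 38 of the 48 were lower with siYAP/TAZ#1 and 37 with siYAP/TAZ#2, against 22.9% and 22.6% of all genes. The siYAP/TAZ#1 count changes too, since the spread is estimated over all groups. In bulk RNA, fewer cells in S phase and less of these transcripts per cell cannot be told apart.

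How many genes were called depended on scaling. With library size alone 12 and 19 were lower and 1 and 4 higher, and the medians were -0.099 and -0.14. Of all genes tested, 8.83% and 9.44% were lower in that setting, and 5876 and 6538 genes were higher. There the median of all genes rose to 0.20 and 0.21, so that the replication genes lay below it by 0.30 and 0.35, as they did on the TMM scale. On log2(TPM + 1) without TMM factors the members' median turned positive, 0.057 and 0.073, against 0.19 and 0.24 for all genes. There 2 and 1 of the 48 were lower, against 0.723% and 0.917% of all genes. In TPM the top gene of each library, MIR3648-2 in 10 libraries and ENSG00000264063 in replicate 4 of both treated groups, took 5.99% to 19.7% of the total. As plain shares of all estimated counts, with no TMM factor, the 48 genes together took 0.406% to 0.422% in siCo, 0.363% to 0.384% with siYAP/TAZ#1 and, with siYAP/TAZ#2, 0.357% to 0.376%, with no overlap between treated and control libraries. With TMM factors applied to the TPM values, an alternative chosen after seeing the data, 25 and 31 genes were lower, against 13.4% and 14.9% of all genes. The members' medians there were -0.29 and -0.33. Of 10 groups of genes by role, the median was positive in 1 (RPA) for both comparisons on the TMM scale, in 2 with library size alone, and in 7 and 9 on log2(TPM + 1) without TMM factors. Lower with both combinations by library size alone were 7 genes: MCM4, MCM5, CDC45, GINS1, GINS2, MCM10 and UHRF1.

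**Figure D3:**
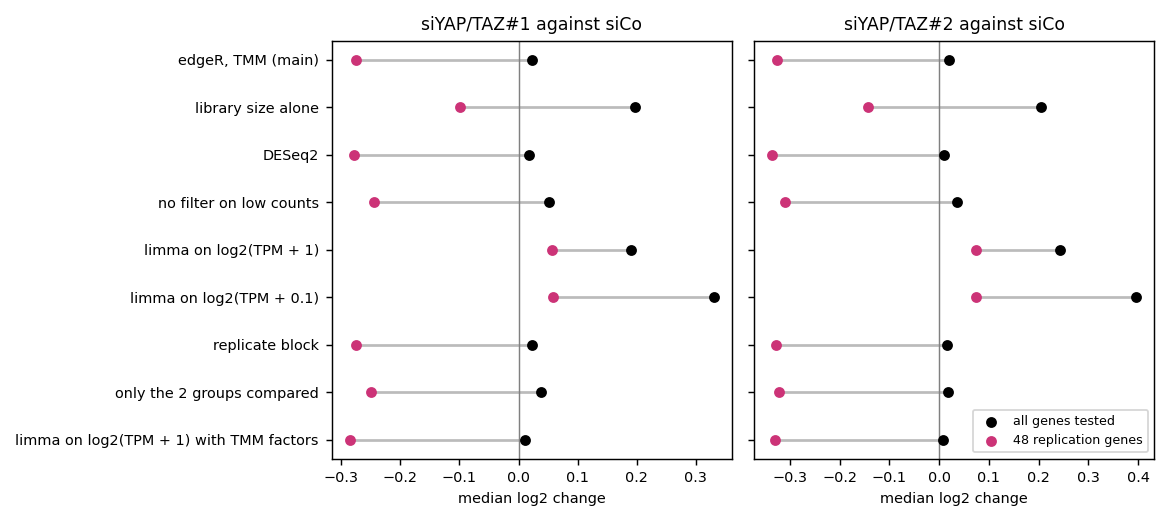
Median log2 change of the 48 replication genes and of all genes tested in each comparison with siCo, under the main setting and 8 alternatives. The members' median lies left of that of all genes in every row, and is above 0 only in the rows for TPM without TMM factors.

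**Figure D4:**
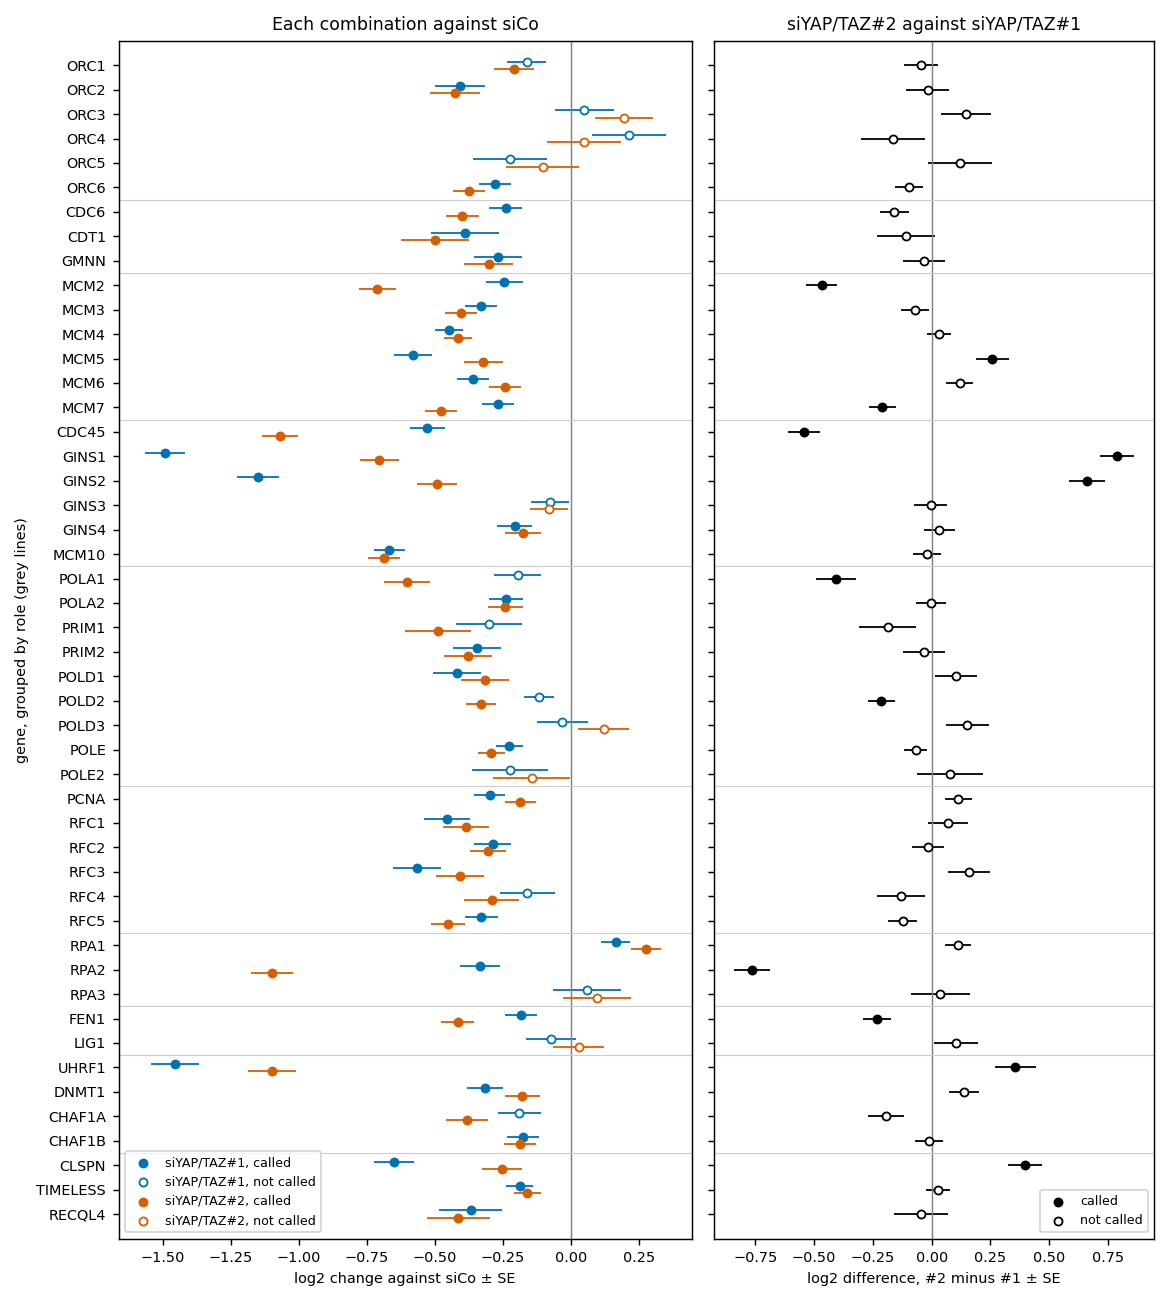
Log2 change ± SE of each gene against siCo (left) and the log2 difference between the combinations ± SE (right), on the TMM scale, with genes grouped by role and filled symbols for calls at adjusted p under 0.05. RPA1 is the one filled point to the right of 0 at left, and GINS1, UHRF1, GINS2, CDC45 and RPA2 reach beyond -1 with at least 1 combination.

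The proteins that turn the loaded ring into a moving helicase included the largest decreases. Of 6 genes, CDC45, GINS1 to GINS4 and MCM10, 5 were lower and 0 higher with either combination (4 and 4 with library size alone), and the median change was -0.60 and -0.59. For this and the other counts by role, 18.5% and 19.2% of all genes were lower on the TMM scale. The shares lower were 8.83% and 9.44% with library size alone, 15.9% and 17.2% with no filter, and 22.9% and 22.6% without siYAP/TAZ#2 replicate 1.

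GINS1 (chromosome 20, 25407727 to 25452628, plus strand, GENCODE v29 on GRCh38), a subunit of the GINS complex, stood at 68.2, 67.7, 66.1 and 74.7 CPM in the siCo libraries. It stood at 24.6, 26.0, 23.1 and 24.5 CPM with siYAP/TAZ#1 and at 36.5, 43.7, 44.0 and 45.5 CPM with siYAP/TAZ#2. The 3 groups did not overlap, and the level left was 35.5% and 61.3% of siCo. The changes were -1.49 ± 0.073 (adjusted p = 4.09e-10) and -0.71 ± 0.072 (adjusted p = 9.77e-07).

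GINS2 (chromosome 16, 85676198 to 85690073, minus strand) followed the same order. Its levels were 43.2, 49.7, 42.8 and 45.8 CPM in siCo, 21.1, 21.9, 18.4 and 20.3 CPM with siYAP/TAZ#1 and 33.9, 34.5, 31.4 and 29.3 CPM with siYAP/TAZ#2. The changes were -1.15 ± 0.076 (adjusted p = 1.02e-08) and -0.49 ± 0.075 (adjusted p = 6.51e-05), again with no overlap between groups. The other GINS genes moved far less. GINS4 changed by -0.21 ± 0.066 and -0.18 ± 0.066 (adjusted p = 0.0216 and 0.0464). The second call of GINS4 was lost in 9 of the 12 fits that left out a library, with -0.12 (adjusted p = 0.090) without siYAP/TAZ#2 replicate 1, which left 4 of the 6 genes lower there. It was lost as well with no filter, with the replicate number as a block and in the fit on 2 groups. GINS3 stood at -0.08 ± 0.070 and -0.08 ± 0.071 and was not called.

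CDC45 (chromosome 22, 19479459 to 19520612, plus strand), which with GINS and the MCM ring forms the active helicase, had the opposite order between the combinations. It measured 32.4, 30.5, 30.1 and 29.8 CPM in siCo, 20.9, 20.4, 20.5 and 23.3 CPM with siYAP/TAZ#1 and 14.6, 14.1, 15.5 and 14.2 CPM with siYAP/TAZ#2. No group overlapped another, and 69.3% and 47.6% of the siCo level was left. The changes were -0.53 ± 0.066 (adjusted p = 1.02e-05) and -1.07 ± 0.067 (adjusted p = 4.78e-09).

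MCM10 (chromosome 10, 13161554 to 13211104, plus strand), which helps to activate the helicase, fell alike with both. In siCo it stood at 64.1, 67.7, 67.6 and 68.2 CPM. The levels were 41.7, 39.9, 41.5 and 45.3 CPM with siYAP/TAZ#1 and 40.9, 39.3, 42.4 and 43.5 CPM with siYAP/TAZ#2. The treated groups overlapped each other and lay below siCo. The changes were -0.67 ± 0.057 and -0.69 ± 0.058 (adjusted p = 1.89e-07 and 1.11e-07).

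All 6 genes of the MCM2-7 ring were lower with both combinations (2 and 5 with library size alone), with medians of -0.35 and -0.41. MCM4 measured 293, 316, 290.3 and 296 CPM in siCo, 225, 226, 213 and 212 CPM with siYAP/TAZ#1 and 222, 225, 233 and 216 CPM with siYAP/TAZ#2. Every treated library lay below every siCo library (-0.45 ± 0.052 and -0.42 ± 0.052, adjusted p = 4.74e-06 and 8.62e-06). MCM2 was at 215, 212, 214 and 223 CPM in siCo, then at 179, 196, 178 and 174 CPM with siYAP/TAZ#1. With siYAP/TAZ#2 it was at 148, 118, 127 and 134 CPM, below all other libraries. The change of MCM2 was -0.24 ± 0.066 with the first combination and -0.71 ± 0.067 with the second (adjusted p = 0.00852 and 4.00e-07). The ring's other members, MCM3, MCM5, MCM6 and MCM7, changed by -0.58 to -0.27 with siYAP/TAZ#1 and by -0.48 to -0.24 with siYAP/TAZ#2.

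Among the origin genes, the loaders fell while the recognition complex was split. CDC6, which recruits the ring, stood at 94.4, 94.7, 90.1 and 93.3 CPM in siCo, at 77.5, 82.0, 72.9 and 83.2 CPM with siYAP/TAZ#1 and at 64.0, 71.0, 75.1 and 72.3 CPM with siYAP/TAZ#2. Both treated groups lay below siCo (-0.24 ± 0.061 and -0.40 ± 0.061, adjusted p = 0.00551 and 7.15e-05). CDT1, which brings the ring to CDC6, varied more: 145, 123, 166 and 138 CPM in siCo, 110.1, 119, 108 and 100.3 CPM with siYAP/TAZ#1 and 132, 78.8, 96.0 and 98.3 CPM with siYAP/TAZ#2. Its highest siYAP/TAZ#2 library, replicate 1, overlapped siCo (-0.39 ± 0.124 and -0.50 ± 0.124, adjusted p = 0.0216 and 0.00417).

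GMNN, which encodes geminin, the inhibitor of CDT1, was also lower. It measured 27.5, 24.1, 28.7 and 28.6 CPM in siCo, 22.4, 23, 21.6 and 23.2 CPM with siYAP/TAZ#1 and 18.3, 21.7, 25.3 and 22.8 CPM with siYAP/TAZ#2, where the range overlapped siCo. The changes were -0.27 ± 0.089 and -0.30 ± 0.089 (adjusted p = 0.0265 and 0.0129). So the inhibitor and the 2 loaders were lower with both combinations, and with library size alone 0 and 2 of these 3 genes were.

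Of the 6 subunits of the origin recognition complex, 2 and 3 were lower and 0 higher, against 18.5% and 19.2% of all genes lower. With library size alone 0 and 0 were lower and 0 and 1 higher (ORC3), where 5876 and 6538 of the 21581 genes were higher. ORC2 stood at 25.8, 24.9, 30.0 and 27.9 CPM in siCo, 21.5, 20.4, 18.8 and 21 CPM with siYAP/TAZ#1 and 17.2, 21.3, 23.3 and 18.9 CPM with siYAP/TAZ#2, with both treated groups below siCo (-0.41 ± 0.091 and -0.43 ± 0.091, adjusted p = 0.00211 and 0.00141). ORC6 changed by -0.28 ± 0.059 and -0.37 ± 0.059. ORC1, the largest subunit, measured 29.8, 32.2, 32.2 and 35.5 CPM in siCo, 28.3, 30.7, 27.7 and 29.1 CPM with siYAP/TAZ#1 and 27.7, 25.2, 29.9 and 29.4 CPM with siYAP/TAZ#2. All 3 groups overlapped, and only the second comparison was called (-0.16 ± 0.072 and -0.21 ± 0.072, adjusted p = 0.0932 and 0.0308). The core subunits ORC3, ORC4 and ORC5 were not called, with values from -0.22 to 0.21. For each of these 3, siYAP/TAZ#2 replicate 1 lay well under its group, and without it ORC3 was higher with siYAP/TAZ#2 (0.30, adjusted p = 0.0087) and ORC5 lower with siYAP/TAZ#1 (-0.23, adjusted p = 0.0323), which made 3 and 3 lower and 0 and 1 higher.

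Of 9 polymerase and primase genes, 4 were lower with siYAP/TAZ#1 and 7 with siYAP/TAZ#2, and none was higher. With library size alone 1 and 2 were lower, against 8.83% and 9.44% of all genes. In that setting 0 and 1 were higher (POLD3), where 5876 and 6538 of the 21581 genes were higher. Without siYAP/TAZ#2 replicate 1 the lower ones were 7 and 7 of the 9, against 22.9% and 22.6% of all genes. POLA1, the catalytic subunit of polymerase alpha, measured 65.1, 61.9, 61.4 and 68.0 CPM in siCo, 53.4, 55.4, 54.9 and 60.2 CPM with siYAP/TAZ#1 and 34.1, 42.9, 48.5 and 43.3 CPM with siYAP/TAZ#2. The groups did not overlap, though the first change missed the threshold (-0.20 ± 0.085, adjusted p = 0.0859) and the second passed it (-0.60 ± 0.086, adjusted p = 3.39e-05). Without siYAP/TAZ#2 replicate 1 the first passed as well (-0.20, adjusted p = 0.0056). The partner POLA2 was lower with both (-0.24 and -0.24), as were the primase subunit PRIM2 (-0.35 and -0.38) and the catalytic subunits POLD1 (-0.42 and -0.32) and POLE (-0.23 and -0.29). The siYAP/TAZ#2 range of POLD1 overlapped siCo through replicate 1, at 200 CPM against 188.2 to 205.8 CPM in siCo. A pseudogene named after PRIM2, PRIM2BP, held 2.05% as many estimated counts as PRIM2, and reads of the pair could be split between them. PRIM1 (-0.30 and -0.49) and POLD2 (-0.12 and -0.33) passed the test with siYAP/TAZ#2 and missed it with siYAP/TAZ#1 (adjusted p = 0.0657 and 0.119). Both were lower with siYAP/TAZ#1 without siYAP/TAZ#2 replicate 1 (adjusted p = 0.00241 and 0.0304). The direct difference between the combinations was called for POLD2 and not for PRIM1 (adjusted p = 0.385). PRIM1 also passed with siYAP/TAZ#1 with the replicate number as a block and in the fit on 2 groups. The accessory subunits POLD3 (-0.03 and 0.12) and POLE2 (-0.22 and -0.14) were called with neither.

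The clamp and all 5 genes of its loader were lower with siYAP/TAZ#2, and with siYAP/TAZ#1 all but RFC4 were (2 and 1 of the 6 with library size alone). The siYAP/TAZ#2 call of RFC4 was lost without replicate 1 of that group (-0.20, adjusted p = 0.0626) and in the fit on 2 groups. PCNA stood at 207, 206, 200 and 209.9 CPM in siCo, 162, 173, 159 and 174 CPM with siYAP/TAZ#1 and 166, 182, 192 and 184 CPM with siYAP/TAZ#2. All 8 treated libraries lay below siCo, by -0.30 ± 0.056 and -0.19 ± 0.056 (adjusted p = 5.04e-04 and 0.0145), the second value was 0.0034 with library size alone, and its call was lost with no filter. RFC3, a small loader subunit, measured 24.7, 27.2, 23.9 and 29.3 CPM in siCo, 17.8, 17.4, 16.9 and 18.9 CPM with siYAP/TAZ#1 and 16.6, 21.8, 20.5 and 20.3 CPM with siYAP/TAZ#2. Neither treated group of RFC3 reached siCo (-0.57 ± 0.089 and -0.41 ± 0.089, adjusted p = 1.03e-04 and 0.00153). RFC1, RFC2 and RFC5 changed by -0.46 to -0.29 and by -0.45 to -0.30.

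The 3 subunits of RPA, which coats single-stranded DNA, moved in different directions. RPA2 (chromosome 1, 27891524 to 27914746, minus strand) was at 29.9, 32.1, 32 and 32.4 CPM in siCo, 26.2, 25.1, 24.4 and 24.5 CPM with siYAP/TAZ#1 and 13.2, 13.4, 16.6 and 15.7 CPM with siYAP/TAZ#2. The groups did not overlap, with 79.3% and 46.6% of siCo left (-0.34 ± 0.075 and -1.10 ± 0.077, adjusted p = 0.00206 and 1.45e-08).

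RPA1, the large subunit, was the one gene of the 48 that rose on the TMM scale with all libraries. It stood at 109, 109.9, 108 and 108 CPM in siCo, 124, 123, 115 and 125 CPM with siYAP/TAZ#1 and 121, 133, 140.5 and 133 CPM with siYAP/TAZ#2, with both treated groups above siCo. The changes were 0.16 ± 0.055 and 0.28 ± 0.055 (adjusted p = 0.0297 and 7.67e-04). The first of these calls was lost in 7 of the 12 fits that left out a library, each siCo library and siYAP/TAZ#1 replicates 1, 2 and 4. RPA3 (0.06 and 0.09) was not called.

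For the joining of lagging-strand fragments, the flap nuclease FEN1 was lower (-0.18 ± 0.060 and -0.42 ± 0.060, adjusted p = 0.0245 and 3.96e-05). The ligase LIG1 was at -0.07 ± 0.093 and 0.03 ± 0.093 (adjusted p = 0.594 and 0.849). With library size alone 0 and 1 of this pair were lower, and LIG1 was higher with siYAP/TAZ#2, as were 6538 of the 21581 genes.

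Genes that restore chromatin and methylation behind the fork were lower in 3 and 4 of 4 cases (2 and 2 with library size alone and with no filter). UHRF1 (chromosome 19, 4903080 to 4962154, plus strand) encodes the factor that reads hemimethylated DNA and guides DNMT1 to it. It measured 200.1, 205, 209 and 186 CPM in siCo, 71.6, 79.3, 72.3 and 68.5 CPM with siYAP/TAZ#1 and 114, 80.0, 90.2 and 89.5 CPM with siYAP/TAZ#2. The 3 groups did not overlap, and 36.4% and 46.6% of siCo was left (-1.46 ± 0.089 and -1.10 ± 0.088, adjusted p = 4.23e-09 and 7.16e-08). UHRF1 is the one gene of the 48 that stayed lower with both combinations on unscaled log2(TPM + 1), by -1.002 and -0.65 (limma adjusted p = 0.00336 and 0.0199). GINS1 was the other gene lower there, with siYAP/TAZ#1 (-0.94, adjusted p = 0.0226).

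DNMT1, the maintenance methyltransferase itself, moved much less. Its levels were 248, 256, 253 and 236 CPM in siCo, 199, 203, 191 and 204 CPM with siYAP/TAZ#1 and 248, 198, 212 and 218 CPM with siYAP/TAZ#2. The siYAP/TAZ#2 range overlapped siCo through replicate 1 (-0.32 ± 0.065 and -0.18 ± 0.065, adjusted p = 0.00111 and 0.0393). The second call was lost in 8 of the 12 fits that left out a library, with no filter and in the fit on 2 groups. The chromatin assembly gene CHAF1B was lower with both (-0.18 and -0.19). CHAF1A (-0.19 and -0.38) passed the test with siYAP/TAZ#2 and missed it with siYAP/TAZ#1 (adjusted p = 0.0707), where it passed without siYAP/TAZ#2 replicate 1 (adjusted p = 0.00201). The direct difference for CHAF1A was not called (adjusted p = 0.118).

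Of the 3 genes grouped here as fork protection, CLSPN, TIMELESS and RECQL4, all were lower with either combination (1 and 1 with library size alone). CLSPN, which encodes claspin, the mediator of the replication checkpoint, measured 53.0, 56.3, 52.2 and 54.2 CPM in siCo. The levels of CLSPN were 34.9, 32.4, 34.4 and 35.7 CPM with siYAP/TAZ#1 and 38.0, 49.1, 48 and 45.8 CPM with siYAP/TAZ#2, 3 separate ranges (-0.65 ± 0.073 and -0.25 ± 0.073, adjusted p = 3.75e-06 and 0.0112). TIMELESS (-0.19 and -0.16) and the helicase RECQL4 (-0.37 and -0.41) were also lower. Both calls of TIMELESS were lost with no filter. The siYAP/TAZ#2 range of RECQL4 overlapped siCo through replicate 1, at 187.6 CPM against 172.7 to 209.6 CPM in siCo.

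**Figure D5:**
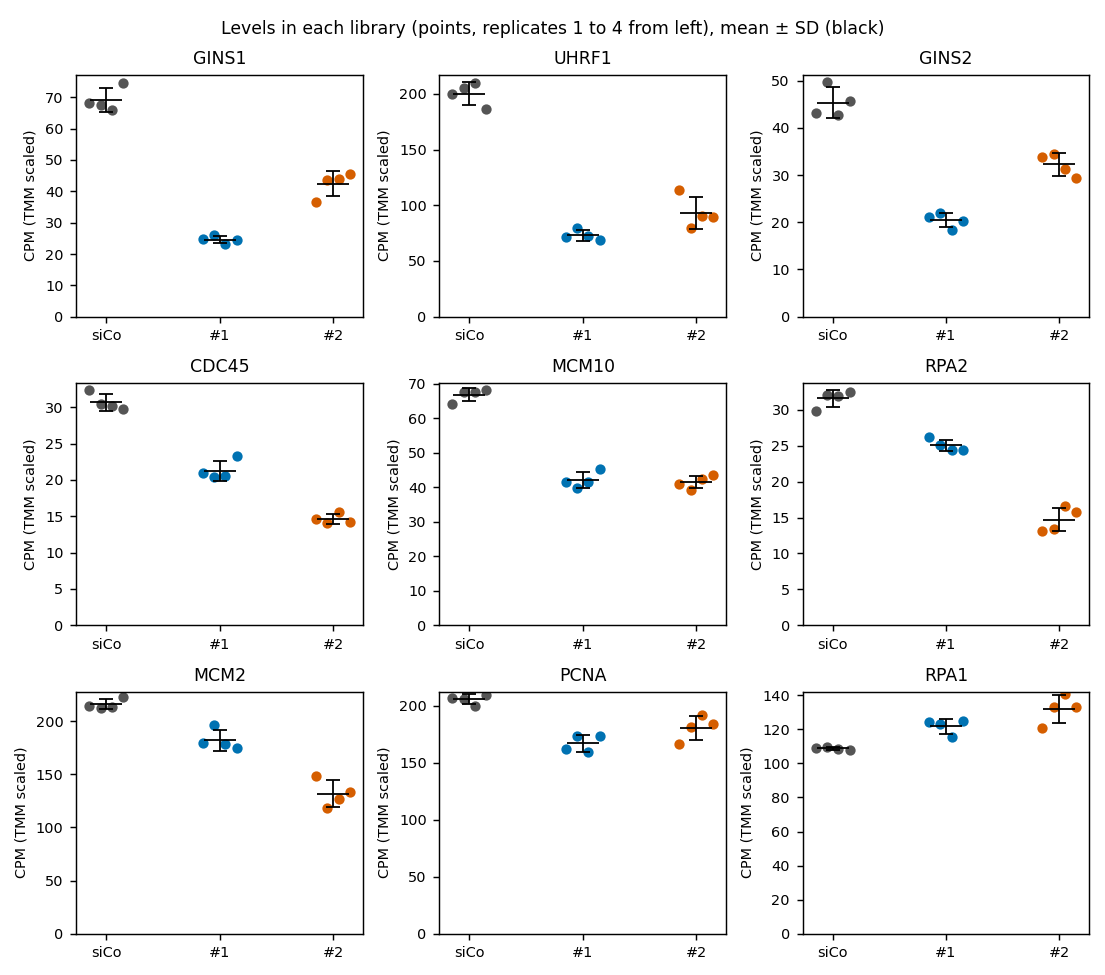
CPM after TMM scaling in each library (points, replicates 1 to 4 from left), with the mean ± SD of 4 libraries in black, for 9 replication genes, each axis starting at 0. GINS1, GINS2 and UHRF1 are lowest with siYAP/TAZ#1, CDC45, RPA2 and MCM2 are lowest with siYAP/TAZ#2, and RPA1 lies above siCo with both.

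Over all libraries, 36 of the 48 genes had every siYAP/TAZ#1 library below every siCo library, against 20.7% of all genes tested, and 32 had so with siYAP/TAZ#2, against 17.7%. In 31 genes all 8 treated libraries lay below siCo, against 13.1% of all genes, and in 1, RPA1, all 8 lay above. When each of the 12 libraries was left out in turn, 27 of the 34 calls with siYAP/TAZ#1 and 34 of the 40 with siYAP/TAZ#2 were kept every time. Lost at least once were CDT1, GMNN, GINS4, RPA1, FEN1, CHAF1B and RECQL4 in the first comparison, and ORC1, GINS4, RFC4, DNMT1, CHAF1B and TIMELESS in the second.

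The combinations were then compared with each other, where the controls cancel. GINS1 and GINS2 were higher with siYAP/TAZ#2 than with siYAP/TAZ#1, and RPA2, CDC45, MCM2 and POLA1 were lower. Of 48 genes, 7 were lower and 5 higher, against 6.92% and 8.2% of all genes tested, and the median difference was -0.015 against 0.0094 for all genes. The higher ones were GINS1 (0.79 ± 0.073), GINS2 (0.66 ± 0.076), CLSPN (0.40 ± 0.073), UHRF1 (0.36 ± 0.088) and MCM5 (0.26 ± 0.071). The lower ones were RPA2 (-0.76 ± 0.077), CDC45 (-0.54 ± 0.067), MCM2 (-0.47 ± 0.067), POLA1 (-0.41 ± 0.085), FEN1 (-0.23 ± 0.060), POLD2 (-0.21 ± 0.056) and MCM7 (-0.21 ± 0.059). Adjusted p was 9.65e-07 for GINS1 and 0.0222 for MCM7, with the others between. Of the 48 genes, 12 (25%) had no overlap between the libraries of one combination and those of the other, against 18.2% of all genes tested. For the 36 genes not called, the difference lay between -0.19 and 0.16, and a p that misses the threshold does not show that the combinations acted alike.

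That count depended on single libraries. Without siYAP/TAZ#2 replicate 1, 10 replication genes were lower and 11 higher with siYAP/TAZ#2 than with siYAP/TAZ#1. Calls over all genes rose too, from 6.92% lower and 1769 genes higher to 10.6% lower and 2836 genes higher. The 9 replication genes added were ORC3, ORC5, MCM6, PCNA, RFC3 and RPA1 as higher and CDT1, CHAF1A and RECQL4 as lower. Without siYAP/TAZ#2 replicate 2, 4 replication genes were lower and 5 higher. Of all genes, 6.1% were lower in that fit and 1633 genes were higher. MCM5, MCM7, POLD2 and FEN1 lost their call in at least 1 of the 12 fits, and the other 8 kept theirs.

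Genes with an E2F word in the promoter window were set beside those without one. The 20 with a word had a median change of -0.28 with siYAP/TAZ#1 (range -1.49 to 0.05), and the 21 without one -0.27 (range -0.67 to 0.21). With siYAP/TAZ#2 the medians were -0.35 and -0.33. Lower on the TMM scale were 15 of 20 and 13 of 21 with the first combination, against 18.5% of all genes tested. With the second they were 16 of 20 and 18 of 21, against 19.2%. GINS1, GINS2 and UHRF1, printed above, carry a word, and CDC45 and MCM10 do not. These values are a description without a test.

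Other genes of the fork, from a list of 36 that work with the 48, went the same way. Of these, 21 were lower and 3 higher with siYAP/TAZ#1, against 18.5% and 16.4% of all genes. With siYAP/TAZ#2 22 were lower and 2 higher, against 19.2% and 19%. The medians of the list were -0.28 and -0.30. With library size alone 8 were lower and 6 higher with siYAP/TAZ#1, and 8 and 5 with siYAP/TAZ#2. In that setting 8.83% and 9.44% of all genes were lower, and 5876 and 6538 of the 21581 genes were higher. On log2(TPM + 1) without TMM factors the medians of the list were 0.077 and 0.16. The ones higher on the TMM scale, named after their values were seen, were POLE3 (0.33, but -0.40 with siYAP/TAZ#2, where it was lower), the kinase WEE1 (0.68 and 0.24) and CDCA7 (0.23) with siYAP/TAZ#1, and WEE1 and the histone chaperone ASF1A (0.44) with siYAP/TAZ#2. MCMBP, which binds the MCM ring off chromatin, fell from 131 CPM in siCo to 78.7 and 77.0 CPM (-0.74 and -0.77), and the ubiquitin ligase RAD18, which modifies PCNA at stalled forks, from 38.2 to 24.8 and 25.1 CPM (-0.62 and -0.61). TICRR (-0.31 and -0.53), needed for CDC45 loading, and FBXO5 (-0.53 and -0.43), an inhibitor of the anaphase-promoting complex, were lower as well.

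Regulators of S phase entry were more divided between the combinations. Of 20 genes, 11 were lower and 2 higher with siYAP/TAZ#1, against 18.5% and 16.4% of all genes. With siYAP/TAZ#2 13 were lower and 0 higher, against 19.2% and 19%. With library size alone these counts of the 20 were 10 and 3, and 9 and 3. In that setting 8.83% and 9.44% of all genes were lower, and 5876 and 6538 of the 21581 genes were higher. On log2(TPM + 1) without TMM factors 0 and 4 of the 20 were lower, against 0.723% and 0.917% of all genes. The medians of the list there were -0.093 and 0.071. The pair higher with siYAP/TAZ#1 on the TMM scale, named after their values were seen, was E2F2 (0.46 and 0.08) and the CDK inhibitor CDKN1A (0.19, but -0.17 and lower with siYAP/TAZ#2). The phosphatase CDC25A, which activates CDK2, fell from 56.4 CPM to 37.6 and 10.2 CPM (-0.58 and -2.46), and CDK2 from 70.9 to 33.9 and 46.0 CPM (-1.07 and -0.62). CCNA2, the S phase cyclin, changed by -0.51 and -1.05, and CCND1, the G1 cyclin, by -0.51 and -1.23. Between the combinations 10 of the 20 were lower and 7 higher with siYAP/TAZ#2, against 6.92% and 8.2% of all genes. Among the lower ones, named after their values were seen, were E2F5 (0.03 and -2.13 against siCo) and SKP2 (-0.45 and -2.16). Among the higher ones, named likewise, were RBL2 (-1.09 and -0.01), RB1 (-0.99 and -0.21) and E2F8 (-0.73 and -0.15).

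Mitosis genes moved with the replication genes. Of 25, 22 and 20 were lower, against 18.5% and 19.2% of all genes, and 0 were higher. With library size alone 14 and 8 were lower, against 8.83% and 9.44% of all genes. On log2(TPM + 1) without TMM factors none of the 25 was lower. The medians on the TMM scale were -0.40 and -0.33. Among the lower ones were AURKA (-0.75 and -0.62), AURKB (-0.49 and -0.54), PLK1 (-0.59 and -0.61) and BIRC5 (-0.48 and -0.65). The summed level of the 25 was 3544 to 3811 CPM in siCo, 2587 to 2791 CPM with siYAP/TAZ#1 and 2699 to 2938 CPM with siYAP/TAZ#2. The 48 replication genes summed to 4473 to 4582 CPM, 3468 to 3700 CPM and 3365 to 3696 CPM in the same groups. Whether the share of cycling cells had a part in these decreases was not tested.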

How the data were processed

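RNA of 12 A549 libraries was sequenced by the BGISEQ-500 protocol, per the labels' protocols, with groups and replicate numbers taken from sample titles. The authors deposited estimated counts per gene, unscaled, and TPM values. Tools listed in the submitters' processing notes are kallisto 0.4.6 and Trim Galore 0.6.4, and the build is GRCh38.p13. Their roles and order are not stated, and the step from transcripts to genes is not given in the sources used here. Symbols were found for 60357 of the 60617 identifiers.

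Counts were rounded and tested with edgeR 4.0.16 (R 4.3.3): TMM scaling, filterByExpr defaults, group as the only term over 12 libraries, the quasi-likelihood F test, Benjamini-Hochberg over 21581 genes. The step was tested on simulated counts, with known changes put into the siYAP/TAZ#1 libraries in equal numbers up and down. No shift in library composition was built in, so the simulation does not test the dependence on scaling. Levels between genes and of cell type markers used TPM. Alternatives were library size alone, DESeq2 1.42.0, no filter, limma 3.58.1 on log2 TPM, a replicate block, fits on 2 groups, other thresholds and leaving out each library.

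The 48 members, their subgroups and the other lists were chosen with earlier results of these data known. Library values are given for 19 members: the 8 with the largest smaller change, the 4 per direction that differ most between combinations, 8 representatives and those that rose. Other lists give 4 genes each by adjusted p, besides those named after their values were seen.

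Pearson correlations of log2 CPM within groups were 0.979 to 0.991, and counts of every pair within a group differed by more than sampling noise (chi-square per degree of freedom 3.63 to 72.7). The series calls the replicates biological, but whether they came from separate cultures is not given, so p-values measure the spread between these libraries, which may be technical.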

Additional observations from a re-analysis of the deposited data

Results flagged for a closer look

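In 15 of 144 combinations of gene and group, 1 library lay far from the other 3, with a gap to its neighbour above Dixon's critical share of the group's range. Chance alone flags about 1 in 20 such groups. Of these, 5 were siYAP/TAZ#2 replicate 1: ORC3 at 16.5 CPM against 21.8 to 22.7 (gap 0.857 of the range), ORC4 at 12.8 against 19.6 to 20.2 (0.923), ORC5 at 14.4 against 22.9 to 23.4 (0.948), PRIM2 at 11.8 against 14.8 to 15.1 (0.929) and POLE at 202 against 189 to 191 (0.83). In siYAP/TAZ#1, replicate 4 was highest for ORC3 (0.959), CDC45 (0.835) and RFC4 (0.866), and replicate 3 was highest for PRIM1 (0.839) and lowest for RPA1 (0.848). In siYAP/TAZ#2, replicate 2 was highest for ORC6 (0.964). In siCo, replicate 2 was lowest for ORC5 (0.845) and highest for POLA2 (0.934), replicate 1 was lowest for MCM10 (0.863) and replicate 4 lowest for POLD1 (0.907).

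The effects of the combinations differed in 12 of the 48 genes by edgeR's direct comparison, against 15.1% of all genes tested. Of the 48, 5 were higher and 7 lower with siYAP/TAZ#2, against 8.2% and 6.92% of all genes. Higher with siYAP/TAZ#2 were GINS1 (adjusted p = 9.65e-07), GINS2 (1.08e-05), CLSPN (0.00111), UHRF1 (0.0104) and MCM5 (0.0193). Lower were RPA2 (2.26e-06), CDC45 (2.35e-05), MCM2 (9.77e-05), POLA1 (0.00311), FEN1 (0.0134), POLD2 (0.0149) and MCM7 (0.0222). All 12 genes had negative values against siCo with both combinations, on the TMM scale, of which those of POLA1 and POLD2 with siYAP/TAZ#1 did not pass the test.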

How the results depend on the processing

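Against siCo, the median of the 48 replication genes lay below that of all genes under every setting tried, while the number called was not. With library size alone 12 and 19 of the 48 genes were lower, against 8.83% and 9.44% of all genes. In that setting 4 of the 48 were higher with siYAP/TAZ#2 and 7 were lower with both. On log2(TPM + 1), and likewise on log2(TPM + 0.1), 2 and 1 were lower, 0 were higher with siYAP/TAZ#1, 1 was lower and 0 higher with both, and 0 and 0 differed between the combinations. On log2(TPM + 1) with TMM factors, chosen after seeing the data, 4 were lower and 3 higher between the combinations. At adjusted p under 0.01 the same 2 counts were 4 and 3, and 0 were higher with siYAP/TAZ#1 or with both. With a minimum change of 0.5 on the log2 scale the lower genes were 8, 7 and 4 (siYAP/TAZ#1, siYAP/TAZ#2, both), the higher ones 0, 0 and 0, and 2 and 2 differed between the combinations. Leaving out 1 library at a time gave 27 to 38 lower and 0 to 1 higher with siYAP/TAZ#1. With siYAP/TAZ#2 these counts were 35 to 38 and 1 to 2, and with both combinations 27 to 36 and 0 to 1. Between the combinations 4 to 10 were lower and 4 to 11 higher. There 5.46% to 10.6% of all genes were lower, and 1277 to 2836 genes were higher. DESeq2, no filter and fits on 2 groups moved none of these counts over the 48 genes by over 1.5 times. Of the counts by role against siCo, 2 moved further, both with no filter: the lower chromatin and methylation genes went from 4 to 2 with siYAP/TAZ#2, and those of Okazaki fragment maturation from 1 to 0 with siYAP/TAZ#1. The replicate numbers did not meet the criterion for pairing, a correlation over 0.1 in every pair: deviations from group means correlated at -0.153 to 0.208 in 12 pairs with the same number (4 over 0.1) and at -0.283 to 0.204 in 36 with different numbers (4 over 0.1). All 3 pairs of replicate 4 were over 0.1 (0.193, 0.148 and 0.208), and replicate 4 had the lowest MIR663AHG share (3.83%, 2.18% and 2.45% of counts) and the highest epithelial marker sum of each group. A replicate block gave 34 and 38 lower, 1 and 1 higher, 33 lower with both, and 7 lower and 5 higher between the combinations; of single calls against siCo, PRIM1 was gained with siYAP/TAZ#1 and GINS4 lost with siYAP/TAZ#2. Over single genes, comparisons and settings, 2415 values kept direction and call, 224 lost the call, 25 gained it and 216 changed sign, of which 123 were called in neither fit and 93 in at least 1. Of those 93, 4 came with library size alone, all with siYAP/TAZ#2: GINS4 (0.015), PCNA (0.0034), DNMT1 (0.0036) and TIMELESS (0.029). Of the uncalled sign changes, library size alone gave 6 with siYAP/TAZ#1 (ORC1, GINS3, POLD2, POLD3, RFC4, LIG1), 3 with siYAP/TAZ#2 (ORC5, GINS3, POLE2) and 3 between the combinations (GINS3, POLA2, CHAF1B). All others of the 93 came on TPM values without TMM factors, given here at a pseudocount of 1 and then 0.1. With siYAP/TAZ#1 these were ORC6 (0.10, 0.11), CDC6 (0.055, 0.056), GMNN (0.093, 0.098), MCM2 (0.019, 0.020), MCM6 (0.022, 0.023), MCM7 (0.12, 0.12), GINS4 (0.026, 0.027), POLA2 (0.15, 0.15), PRIM2 (0.030, 0.033), POLE (0.041, 0.041), PCNA (0.060, 0.060), RFC2 (0.071, 0.073), RFC5 (0.029, 0.031), FEN1 (0.17, 0.18), DNMT1 (0.090, 0.091), CHAF1B (0.15, 0.17) and TIMELESS (0.20, 0.20). With siYAP/TAZ#2 these were ORC1 (0.20, 0.23), ORC2 (0.069, 0.061), ORC6 (0.078, 0.081), CDC6 (0.058, 0.059), GMNN (0.13, 0.13), MCM5 (0.15, 0.15), MCM6 (0.19, 0.20), MCM7 (0.010, 0.010), GINS4 (0.038, 0.039), POLA2 (0.31, 0.32), PRIM2 (0.087, 0.090), POLD1 (0.052, 0.053), POLD2 (0.10, 0.10), POLE (0.015, 0.015), PCNA (0.25, 0.25), RFC1 (0.046, 0.045), RFC2 (0.13, 0.13), RFC3 (0.053, 0.057), RFC4 (0.32, 0.34), RFC5 (0.038, 0.040), FEN1 (0.029, 0.029), DNMT1 (0.19, 0.19), CHAF1A (0.065, 0.067), CHAF1B (0.21, 0.23), CLSPN (0.20, 0.21), TIMELESS (0.29, 0.30) and RECQL4 (0.0086, 0.0086), and at a pseudocount of 1 alone POLA1 (0.0045). In these settings the median of all genes moved as well, and the cause was not tested further. All 48 genes passed the count filter, the largest standard error was that of POLE2 (0.14), and the effect of depth was not tested.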
